A study of Bos grunniens x Bos taurus and Bos grunniens with 6 samples.

Results

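Hormone receptors are the proteins through which testis cells read endocrine signals, and 9 of their genes are described here in testis of cattle-yak and yak. They were chosen by symbol, not by a threshold on their values, with earlier results of these data known: FSHR, LHCGR, RXFP2, PRLR, GHR, ESR1, ESR2, NR3C1 and THRA. Each symbol stood on exactly 1 gene, so the 9 receptors were 9 of the 18918 genes in the expression table. The cattle-yak were 3 sterile F1 hybrid males of Jersey cattle sires and Gannan yak dams, from Xiahe County. The yak were 3 Gannan males from Linxia County. All 6 animals were 4 years old, and each gave 1 library of whole testis tissue. The animals are named C1 to C3 (cattle-yak) and Y1 to Y3 (yak). Cattle-yak testes came from castration and yak testes were taken after euthanasia, so species, county of origin and way of collection cannot be told apart. Reads of both groups were mapped to the yak genome, so a Jersey allele is read against a yak sequence in cattle-yak only, and its part in the values was not tested.

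Pituitary hormones reach the testis through receptors on somatic cells. Follicle-stimulating hormone binds FSHR on Sertoli cells, which nurse the germ cells, and luteinizing hormone binds LHCGR on Leydig cells, which make testosterone. Both receptors sit in the cell membrane and raise cyclic AMP through a stimulatory G protein. RXFP2 is a membrane receptor of the same broad class that binds the Leydig cell hormone INSL3, known for its part in testis descent. GHR and PRLR are cytokine-type membrane receptors that signal through JAK kinases and STAT factors. ESR1, ESR2, NR3C1 and THRA are nuclear receptors, which bind oestrogen, glucocorticoid and thyroid hormone and act as transcription factors.

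Library depths were inferred from the FPKM values, as the depth at which gene lengths came out as whole numbers of bases. By this estimate cattle-yak libraries held 11175100 to 11834987 fragments on genes, and yak libraries 12991641 to 13136129. Levels are given in FPKM, the fragments on a gene divided by its length and by the depth of the library, so that 1 fragment on a gene model of 1 kb equals 0.0761 to 0.0895 FPKM. Markers of testis cell types differed strongly between the groups. All 10 Sertoli, all 5 measured Leydig and all 7 peritubular myoid cell markers were higher in cattle-yak, and all 4 measured round and all 6 measured elongating spermatid markers were lower. The summed FPKM of the Sertoli markers ran from 2486 to 2632 in cattle-yak and from 503 to 569 in yak, that of the Leydig markers from 10414 to 12400 and from 3335 to 4857, and that of the elongating spermatid markers from 15.4 to 75.1 and from 8855 to 10863. Among the others, 6 of 7 spermatogonium markers were higher, and the 6 spermatocyte markers had 1 called in each direction. For endothelium 4 of 7 markers were higher and 1 lower, and for macrophages 3 of 6 were higher and 2 lower. Of all tested genes, 33.4% were called higher and 20.8% lower. Under the median-of-ratios scaling described below, these shares were 17.7% and 27.7%. The markers called higher were then 9 Sertoli, 4 Leydig, 7 myoid, 6 spermatogonium, 0 spermatocyte, 0 endothelial and 1 macrophage. Those called lower were 4 round spermatid, 6 elongating spermatid, 1 spermatocyte, 1 endothelial and 2 macrophage. The 3 red blood cell markers measured summed to at most 0.715 FPKM in every library. In whole tissue, fewer cells of a type and less RNA per cell cannot be told apart, so each value below is a level per unit of testis RNA and the part of cell makeup in it was not tested.

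Of the 9 receptor genes, 6 reached the minimum mean of 0.5 FPKM over the animals and were tested with limma on log2 (FPKM + 1), together with 15042 genes in all. A call needed an adjusted p (Benjamini-Hochberg) below 0.05 together with a log2 fold change of more than 1 in either direction. FSHR, LHCGR and NR3C1 were called higher in cattle-yak, 3 of 6, beside 33.4% of all tested genes. No receptor was called lower, beside 20.8% of all tested genes, and in limma 0 of the 6 were lower at an unadjusted p under 0.05. GHR and ESR1 passed the adjusted p without the fold, so 5 of 6 passed it at any fold change, beside 81.9% of all tested genes. The values of the groups did not overlap for 5 of 6, beside 84.1% of all tested genes. Both of these last shares are close to that of the whole table, in which most genes differed between the groups. GHR and ESR1 reached the minimum only through their cattle-yak values, so the counts cannot stand for low receptors in general.

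The scale of the table matters for these counts. The median log2 fold change over all tested genes was 0.51 rather than 0, and the median of the 6 tested receptors was 1.22. Under the scaling described next, the receptor median was 0.81. Both receptor medians include GHR and ESR1, which the minimum let in only through their cattle-yak values, so nothing is read from either. After scaling with median-of-ratios size factors, which set the typical gene of every library to a like level, the median of all genes moved to 0.01 and FSHR, LHCGR and NR3C1 were again the 3 receptors called higher, beside 17.7% of all tested genes called higher and 27.7% called lower, with 0 receptors lower. On whole fragments recovered from the FPKM values and tested with voom in limma, GHR and ESR1 joined them. This made 5 higher, beside 39.7% of all genes, and 0 lower, beside 22.7%. GHR and ESR1 had reached the minimum only through their cattle-yak values, so nothing is read from their joining.

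**Figure D1:**
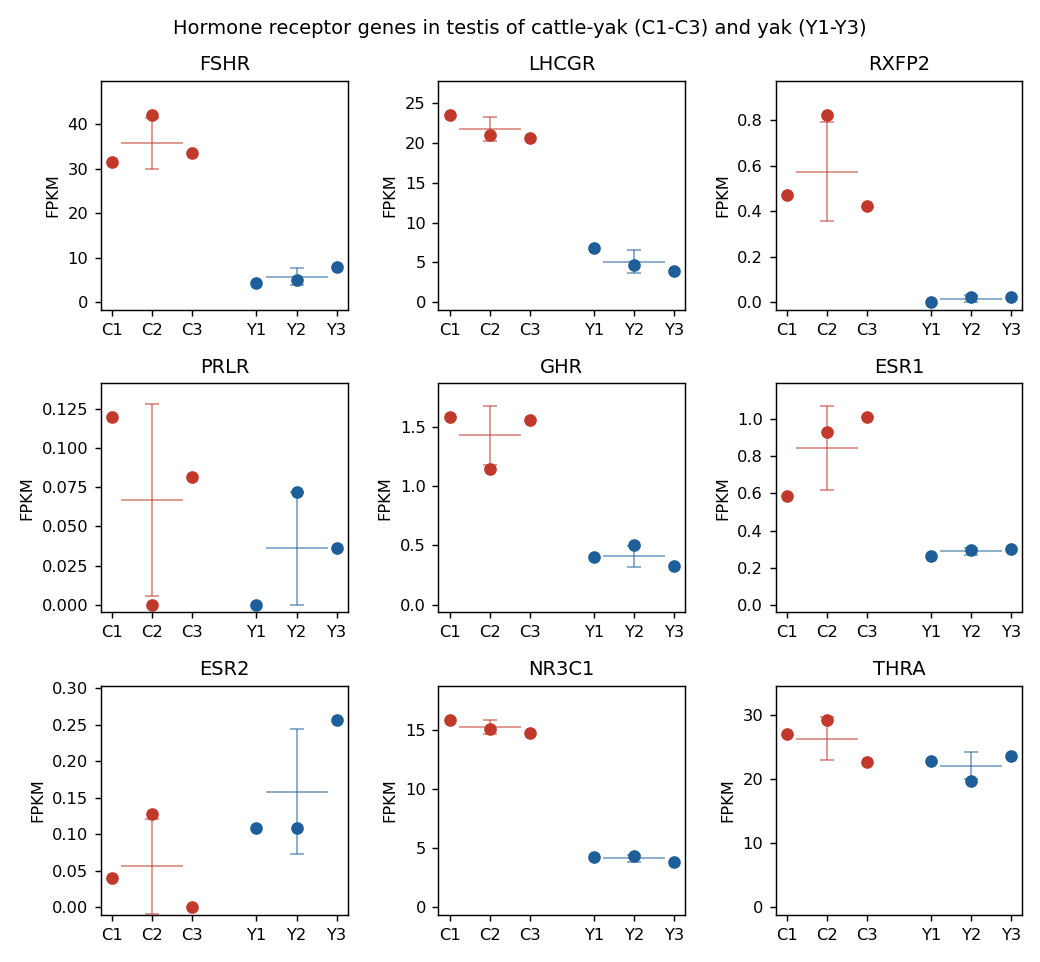
FPKM of the 9 receptor genes (vertical axes, each with its own scale) in the 3 cattle-yak (red, C1 to C3) and 3 yak (blue, Y1 to Y3), with the mean and SD of each group as a line and bar. FSHR, LHCGR, RXFP2, GHR, ESR1 and NR3C1 had every cattle-yak above every yak, and THRA, ESR2 and PRLR had values that overlapped.

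FSHR (ENSBGRG00000011870), the receptor through which follicle-stimulating hormone acts on Sertoli cells, had the highest mean level of the 9 in cattle-yak. It was at 31.4, 42.1 and 33.5 FPKM in C1, C2 and C3 and at 4.35, 5.11 and 7.94 FPKM in Y1, Y2 and Y3. Every cattle-yak stood above every yak, and the highest animal in each group was C2 and Y3. The group means were 35.7 ± 5.66 and 5.80 ± 1.89 FPKM (SD, n = 3 each), a 6.15-fold difference. In limma the log2 fold change was 2.46 with an SE of 0.21 and a 95% interval of 1.98 to 2.93, at an adjusted p of 1.0e-05. It ranked 355 among the 15042 tested genes by log2 fold change, so 97.6% of them had a lower one. The values rested on 833 to 1054 fragments per cattle-yak and 128 to 231 per yak. Under median-of-ratios scaling the log2 fold change was 1.89.

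LHCGR (ENSBGRG00000011219), the luteinizing hormone receptor of Leydig cells, was also higher in cattle-yak. Its level was 23.5, 20.98 and 20.6 FPKM in C1 to C3 and 6.75, 4.67 and 3.92 FPKM in Y1 to Y3. The groups did not overlap, and the 3 cattle-yak lay closer together than those of FSHR. The means of 21.7 ± 1.55 and 5.11 ± 1.47 FPKM (SD, n = 3 each) differed 4.24-fold. The log2 fold change was 1.92 (SE 0.18, 95% interval 1.5 to 2.33), with an adjusted p of 1.9e-05 in limma, and 1.36 under median-of-ratios scaling. Between 682 and 808 fragments per cattle-yak and between 148 and 258 per yak lay on the gene.

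The ratio of the gonadotropin receptors to each other varied more between yak than between cattle-yak. Log2 of FSHR over LHCGR, with 0.1 FPKM added to each, was 0.42, 1.0 and 0.70 in C1 to C3 and −0.62, 0.13 and 1.0 in Y1 to Y3. Y1 thus had less FSHR than LHCGR and Y3 had about 2.03 times as much. The groups overlapped, with a difference of 0.54 (two-sided exact permutation test, p = 0.4, adjusted over 8 ratios 0.4). The SD was 0.29 in cattle-yak and 0.81 in yak. With 3 animals in each group the smallest p that this test can give is 0.1.

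RXFP2 (ENSBGRG00000008963), the INSL3 receptor, was low in all 6 animals and below the minimum for the test. It had 17, 28 and 15 fragments in C1 to C3, or 0.473, 0.825 and 0.426 FPKM, and 0, 1 and 1 fragment in Y1 to Y3, or 0, 0.0251 and 0.0253 FPKM. The groups did not overlap, and every yak was within the limit that a count of 0 allows, which is 3 fragments. Per unit of depth, the 60 fragments of the cattle-yak against 2 of the yak gave a ratio of 34, with a 95% interval of 9.01 to 287 that covers counting error only. In a voom fit over all genes with at least 10 fragments in the 6 libraries, added after the values were seen, 8 of the 9 receptors were included and RXFP2 had a log2 fold change of 4.42 (SE 0.78). RXFP2 reached that minimum only through its cattle-yak fragments, so this value is a description and no p is given. The fit called 6 of the 8 receptors higher with RXFP2 among them, beside 37.5% of all genes, and 0 lower, beside 22.2%, and nothing is read from this count. INSL3, its ligand and a Leydig cell product, had mean levels of 11174 ± 1043 FPKM (cattle-yak) and 3842 ± 808 FPKM (yak), each with SD and n = 3, a log2 fold change of 1.56 with an adjusted p of 4.7e-05 in limma.

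GHR (ENSBGRG00000025165), the growth hormone receptor, was low in both groups. Its level was 1.58, 1.14 and 1.55 FPKM in C1 to C3 and 0.399, 0.50 and 0.328 FPKM in Y1 to Y3, from 151 and 49 fragments in all. The lowest cattle-yak was above the highest yak, and the means of 1.42 ± 0.24 and 0.409 ± 0.086 FPKM (SD, n = 3 each) differed 3.48-fold. The pseudocount of 1 compressed this difference to a log2 fold change of 0.78 (SE 0.16, 95% interval 0.42 to 1.14, limma adjusted p of 1.7e-03), short of the fold threshold. On recovered fragments voom gave 1.78, with a limma adjusted p of 9.4e-04, so the call depended on the scale. GHR reached the minimum only through its cattle-yak values, so both p-values are a description and no support for a difference.

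PRLR (ENSBGRG00000012695), the prolactin receptor, was close to the detection limit. It had 3, 0 and 2 fragments in C1 to C3 and 0, 2 and 1 in Y1 to Y3, at most 0.120 FPKM in any animal. The groups overlapped, and the ratio per depth of 5 to 3 fragments was 1.89 with a 95% counting interval of 0.368 to 12.2. No difference was detectable at this depth.

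ESR1 (ENSBGRG00000006011), the oestrogen receptor alpha of interstitial cells and of the ducts behind the testis, was at 0.587, 0.932 and 1.01 FPKM in C1 to C3 and 0.264, 0.298 and 0.301 FPKM in Y1 to Y3. The groups did not overlap, and the yak values were narrowly spread. The means were 0.843 ± 0.225 and 0.288 ± 0.020 FPKM (SD, n = 3 each), on 16 to 27 fragments per cattle-yak and 8 or 9 per yak. In limma the log2 fold change of 0.51 (SE 0.16, 95% interval 0.14 to 0.88, adjusted p of 0.0170) missed the fold threshold. Voom on fragments gave 1.46 with a limma adjusted p of 0.0114. With median-of-ratios scaling added, however, the value was 0.85 with an adjusted p of 0.102 in limma. ESR1 reached the minimum only through its cattle-yak values, so these p-values are a description and no support for a difference.

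ESR2 (ENSBGRG00000012638), the oestrogen receptor beta, was the receptor with fewer fragments in cattle-yak than in yak. It had 1, 3 and 0 fragments in C1 to C3 and 3, 3 and 7 in Y1 to Y3, between 0 and 0.257 FPKM. The groups overlapped in FPKM, since C2 at 0.128 exceeded Y1 and Y2 at 0.109. The ratio per depth was 0.349 with a 95% counting interval of 0.0828 to 1.13, which includes equal levels. ESR1 over ESR2 was 14.6 in C1, 7.29 in C2 and 1.17 to 2.73 in the yak, with no ratio for C3, where ESR2 was listed at 0. With 0.1 FPKM added to each gene, this log2 ratio was 2.01 higher in cattle-yak and that of PRLR over GHR 1.33 lower, both without overlap (exact permutation p = 0.1, adjusted over 8 ratios 0.13), but either rests on a few fragments of its lower gene.

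NR3C1 (ENSBGRG00000012083), the glucocorticoid receptor, had the closest replicates of the 3 called receptors. Its level was 15.8, 15.1 and 14.7 FPKM in C1 to C3 and 4.29, 4.37 and 3.79 FPKM in Y1 to Y3. No cattle-yak came near the yak range. The means of 15.2 ± 0.59 and 4.15 ± 0.31 FPKM (SD, n = 3 each) differed 3.66-fold, on 404 to 449 and 118 to 137 fragments. The log2 fold change was 1.66 (SE 0.12, 95% interval 1.37 to 1.94, limma adjusted p of 5.1e-06) and 1.11 under median-of-ratios scaling. NR3C2, the related mineralocorticoid receptor, which also binds glucocorticoid, was at 9.74 ± 1.1 and 4.84 ± 1.07 FPKM (SD, n = 3 each), a log2 fold change of 0.89 that was not called (limma adjusted p of 1.3e-03). NR3C1 was at 1.83, 1.39 and 1.51 times NR3C2 in C1 to C3, and the ratio was 0.946, 1.11 and 0.629 in Y1 to Y3. The log2 ratio was 0.84 higher in cattle-yak without overlap, at the smallest p the design allows (exact permutation test, two-sided, p = 0.1, adjusted over 8 ratios 0.13).

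THRA (ENSBGRG00000020538), the thyroid hormone receptor alpha, which restrains Sertoli cell division in the young testis, was the tested receptor whose groups overlapped. It was at 27.0, 29.3 and 22.7 FPKM in C1 to C3 and at 22.9, 19.7 and 23.7 FPKM in Y1 to Y3. C3 lay inside the yak range and the other two cattle-yak above it. The means were 26.3 ± 3.34 and 22.1 ± 2.12 FPKM (SD, n = 3 each), a log2 fold change of 0.24 (SE 0.13, 95% interval −0.06 to 0.54, limma adjusted p of 0.117) that turned to −0.35 under median-of-ratios scaling (limma adjusted p of 0.0305). THRA stood below the median fold change of all genes on either scale. NR1D1, a gene that overlaps THRA on the opposite strand in mammals, was at 5.39 ± 1.90 and 11.1 ± 0.755 FPKM (SD, n = 3 each) and was looked up after the values of THRA were seen. The strand setting of the counting is not given in the sources used here, so how much either gene's value holds reads of the other was not tested.

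THRB, the other thyroid hormone receptor gene, went the other way. It was at 1.38, 1.86 and 1.90 FPKM in C1 to C3 and 7.17, 6.63 and 7.41 FPKM in Y1 to Y3, and it was lower in cattle-yak with a log2 fold change of −1.58 (SE 0.15, limma adjusted p of 1.9e-05). The groups were far apart. THRA was 19.6, 15.7 and 12.0 times THRB in C1 to C3 and 3.19, 2.97 and 3.19 times THRB in Y1 to Y3, a log2 ratio 2.25 higher in cattle-yak (exact permutation test, two-sided, p = 0.1, the smallest possible, adjusted over 8 ratios 0.13). A ratio within a library does not depend on the scaling between libraries, and of the 5 ratios drawn in the plot of gene pairs this one differed most.

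**Figure D2:**
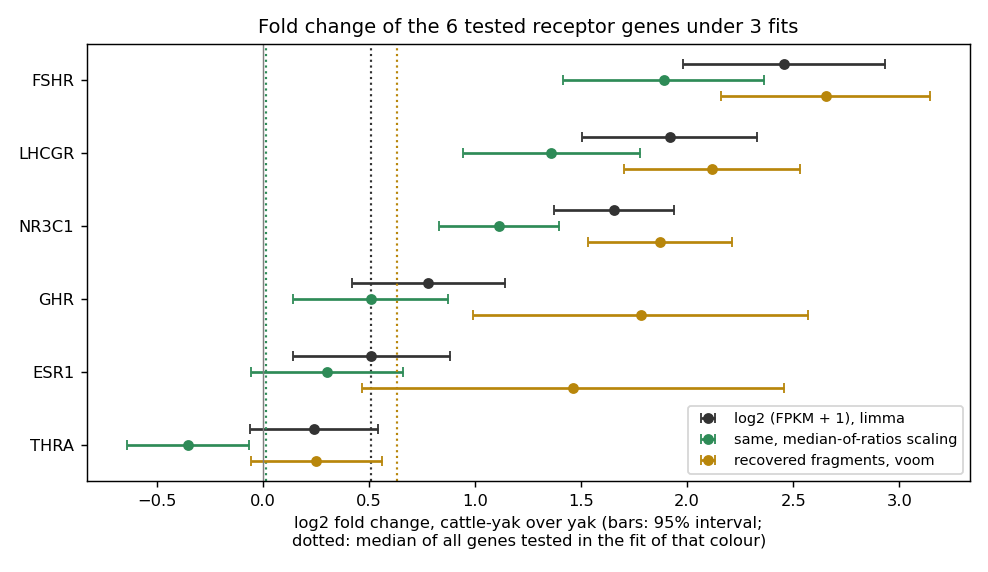
Log2 fold change, cattle-yak over yak (horizontal axis), of the 6 tested receptors (rows) with 95% intervals, from limma on log2 (FPKM + 1) (black), the same after median-of-ratios scaling (green) and voom on recovered fragments (gold), with dotted lines at the median of all genes in each fit. FSHR, LHCGR and NR3C1 had estimates above 1 in each of these fits, GHR and ESR1 only on fragments, and THRA changed sign with the scaling.

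The order of the receptors by level differed between the groups in places. In cattle-yak the mean FPKM fell from FSHR through THRA, LHCGR, NR3C1, GHR, ESR1, RXFP2 and PRLR to ESR2. Neighbours whose animals overlapped were THRA with LHCGR, ESR1 with RXFP2 and PRLR with ESR2. In yak THRA stood at the top and was followed by FSHR, LHCGR, NR3C1, GHR, ESR1, ESR2, PRLR and RXFP2. There FSHR overlapped LHCGR, LHCGR overlapped NR3C1 and PRLR overlapped RXFP2. FSHR stood at the 81.7 percentile of all genes in cattle-yak and at the 51.4 percentile in yak, and THRA at the 76.0 and 74.3 percentiles.

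Relative to Sertoli cell genes, FSHR overlapped between the groups. Log2 of FSHR over SOX9, a transcription factor of Sertoli cells, was −0.15, 0.24 and 0.06 in C1 to C3 and −0.77, −0.23 and 0.22 in Y1 to Y3. The groups overlapped, with a difference of 0.31 (two-sided exact permutation test, p = 0.4, adjusted over 8 ratios 0.4). The SD was 0.196 in cattle-yak and 0.495 in yak. Against the mean of the 10 Sertoli markers, the log2 level of FSHR was −1.42, −1.09 and −1.31 in C1 to C3 and −2.01, −1.55 and −1.08 in Y1 to Y3, a difference of 0.27 (exact permutation p = 0.5, adjusted over 18 such comparisons 0.6). The yak spread around the cattle-yak values on this measure.

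LHCGR overlapped between the groups relative to Leydig markers. Relative to the mean of the 5 measured genes (STAR, CYP11A1, CYP17A1, INSL3 and NR5A1), its log2 level was −3.09, −3.42 and −3.20 in C1 to C3 and −3.10, −2.98 and −3.13 in Y1 to Y3. The groups overlapped, with a difference of −0.16 (exact permutation p = 0.3, adjusted over 18 comparisons 0.39). Against CYP17A1, an enzyme of androgen synthesis that luteinizing hormone is known to maintain, log2 of LHCGR was −2.46, −2.91 and −3.30 in C1 to C3 and −1.96, −2.12 and −2.11 in Y1 to Y3. This ratio was lower in every cattle-yak, by 0.82 on average (exact permutation p = 0.1, adjusted over 8 ratios 0.13). CYP17A1 stood on 3 genes in the table and its most abundant one was used, so the ratio is uncertain.

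**Figure D3:**
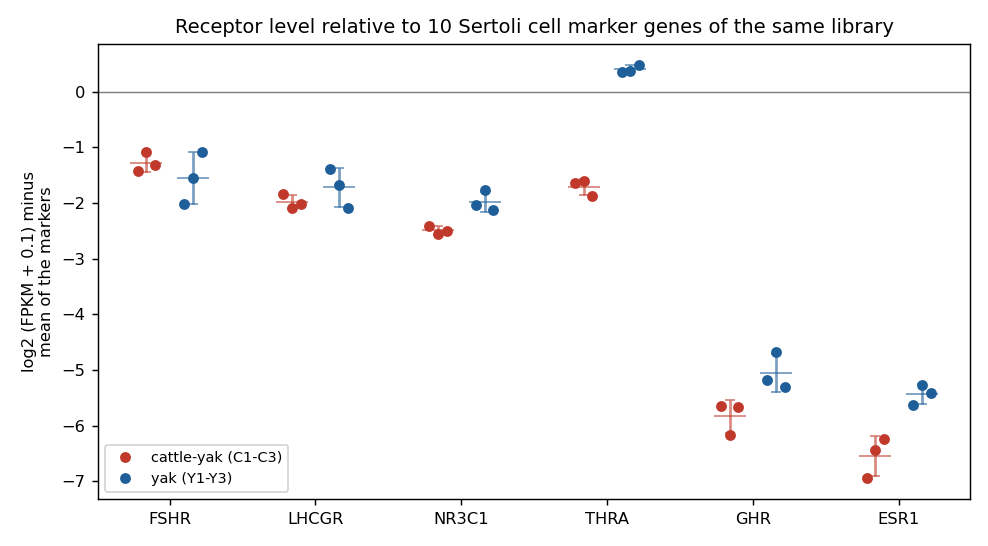
Log2 level of the 6 tested receptors minus the mean log2 level of 10 Sertoli cell markers in the same library (vertical axis, 0.1 FPKM added), in cattle-yak (red) and yak (blue), with the mean and SD of each group. FSHR and LHCGR overlapped between the groups, and NR3C1, GHR, ESR1 and THRA were lower in every cattle-yak. All 10 markers were themselves higher in cattle-yak.

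NR3C1, THRA, GHR and ESR1 were lower relative to the Sertoli markers in every cattle-yak. The 10 Sertoli markers themselves were all higher in cattle-yak, with a median log2 fold change of 2.23, so most genes fell relative to them. How many of all genes were without overlap on this measure was not counted. NR3C1 was at −2.40, −2.56 and −2.50 in C1 to C3 and at −2.03, −1.77 and −2.13 in Y1 to Y3, a difference of −0.51. THRA was at −1.64, −1.61 and −1.87 in cattle-yak against 0.35, 0.37 and 0.48 in yak, a difference of −2.11, and it stood above the mean of the Sertoli markers in yak only. GHR differed by −0.78 and ESR1 by −1.11. None of these 4 receptors overlapped between the groups, and for each the test gave the smallest p it can (exact permutation p = 0.1, adjusted over 18 comparisons 0.18). Against the Leydig markers the groups overlapped for NR3C1 (difference −0.41) and GHR (−0.68), and did not for ESR1 (−1.01) and THRA (−2.01). In every cattle-yak NR3C1 was thus higher than in yak per unit of testis RNA and lower per unit of Sertoli marker RNA. The relative levels of RXFP2, PRLR and ESR2 rest on a few fragments and are not described. The fold changes of LHCGR and NR3C1 likewise turned negative, −0.33 and −0.59, when every library was centred on its Sertoli markers before the limma fit, and that of FSHR was then 0.21. The median over all tested genes was −1.73 in that fit and −1.69 with centring on the Leydig markers.

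**Figure D4:**
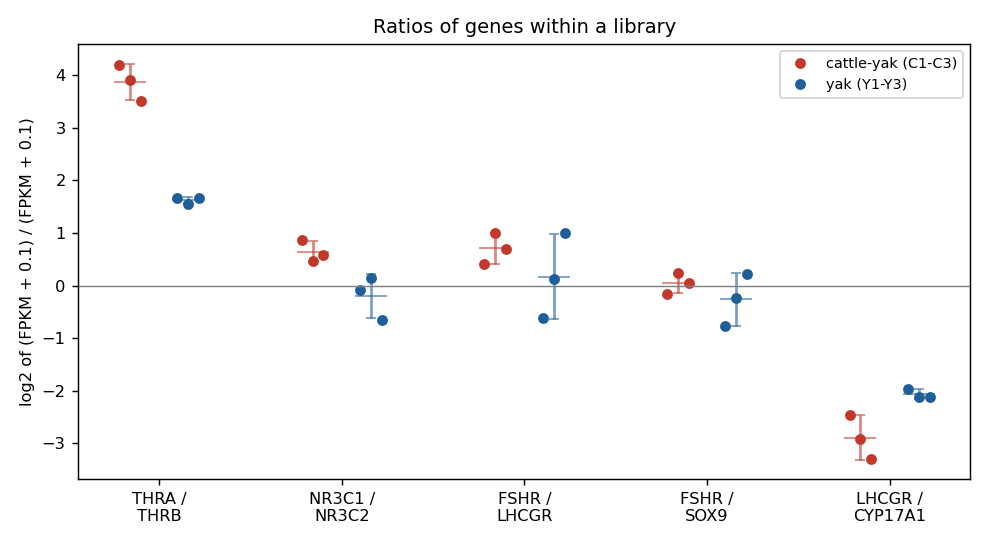
Log2 ratio of 2 genes within a library (vertical axis, 0.1 FPKM added to each) for 5 gene pairs in cattle-yak (red) and yak (blue), with the mean and SD of each group. THRA over THRB was highest in cattle-yak, at 3.51 to 4.2 against 1.55 to 1.66 in yak, FSHR over LHCGR and FSHR over SOX9 overlapped between the groups, and LHCGR over CYP17A1 was lower in every cattle-yak.

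Other hormone receptor genes gave a mixed picture around these 9. Of 18 other membrane receptors of hormones, 14 could be tested, and 3 were higher and 5 lower in cattle-yak (3 and 7 under median-of-ratios scaling), with a median log2 fold change of −0.01 (−0.46 under that scaling). For this and the lists that follow, the shares of all tested genes to set beside the counts are 33.4% higher and 20.8% lower, or 17.7% and 27.7% under median-of-ratios scaling, and the median is 0.51 or 0.01. CRHR1, the receptor of corticotropin-releasing hormone, was at 1.07 ± 0.548 and 12.4 ± 2.66 FPKM (log2 fold change −2.72). The oxytocin receptor OXTR was lower, with a log2 fold change of −2.47. TSHR, the thyrotropin receptor and a close relative of FSHR and LHCGR, had one of −2.06. Its level was 0.224 ± 0.164 FPKM in cattle-yak against 4.09 ± 0.184 in yak. OXTR and TSHR reached the minimum only through their yak values, and MC2R, among the higher ones, only through its cattle-yak values. INSR, the insulin receptor, was higher, with a log2 fold change of 2.0. Of the other nuclear receptors, 21 of 24 could be tested, and 11 were higher, 52.4% beside 33.4% of all tested genes, and 3 lower. Under median-of-ratios scaling 6 were higher and 3 lower, and their median went from 1.01 to 0.44. Among the lower ones, ESRRB reached the minimum only through its yak values. RXRA, a partner of thyroid hormone and other receptors on DNA, rose by 2.30 on the log2 scale, the steroid synthesis repressor NR0B1 by 2.18 and NR2F2 by 1.86. For RXRA the means were 36.9 ± 3.36 and 6.68 ± 0.711 FPKM (SD, n = 3 each), and the groups did not overlap.

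**Figure D5:**
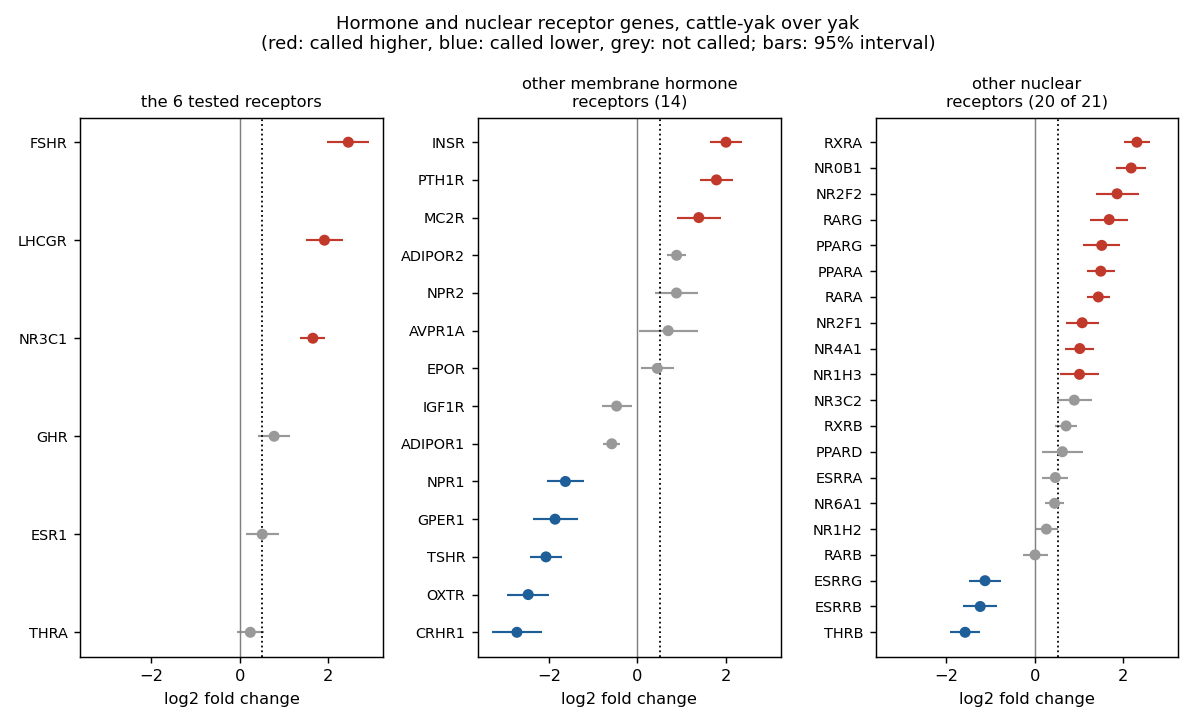
Log2 fold change, cattle-yak over yak (horizontal axes), with 95% intervals from limma on log2 (FPKM + 1), of the 6 tested receptors, 14 other membrane hormone receptors and 20 of the 21 other nuclear receptors, with called genes in red (higher) and blue (lower), others in grey, and a dotted line at 0.51, the median of all tested genes. Membrane receptors ran from −2.72 (CRHR1) to 2.46 (FSHR). Of the 21 other nuclear receptors, 11 were called higher, beside 33.4% of all tested genes. THRB, ESRRB and ESRRG, 3 of the 21, were called lower, beside 20.8%, and ESRRB reached the minimum only through its yak values.

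Of 8 genes for the hormones themselves, 4 could be tested, and 1 was higher and 3 lower. INSL3 was the higher one, with the values given above, but under median-of-ratios scaling its log2 fold change of 0.94 was short of the threshold. LHB, the beta chain of luteinizing hormone, made in the pituitary, was listed at 0 in all 3 cattle-yak and at 13.6 ± 2.62 FPKM in yak (SD, n = 3) and was called lower, on a symbol that stood on 2 genes. PRL, also on 2 genes, was listed at 0 in cattle-yak and at 1.44 ± 0.499 FPKM in yak, and TSHB fell by 1.2 on the log2 scale. In yak LHB rested on 34 to 50 fragments per animal, PRL on 12 to 22 and TSHB on 5 to 13. All 3 reached the minimum only through their yak values. A lower value in cattle-yak was thus set in advance by the filter, and nothing is read from these calls. Of 13 enzymes that make or break down the ligands of the nuclear receptors, 4 could be tested and 1 was called. This was HSD17B1, which makes the potent oestrogen oestradiol from oestrone. It was at 0.200 ± 0.077 FPKM in cattle-yak and 19.8 ± 2.68 in yak (log2 fold change −4.11). HSD17B1 too reached the minimum only through its yak values. CYP19A1, the aromatase, was under the minimum, at 0 to 0.272 FPKM in cattle-yak and 0.348 to 1.62 in yak.

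Downstream of the gonadotropin receptors, 7 of 14 tested signal transducers were higher and 1 was lower, beside 33.4% and 20.8% of all tested genes. Under median-of-ratios scaling 4 were higher and 3 lower, and their median went from 0.84 to 0.30. PRKACB, a catalytic subunit of the cyclic AMP-dependent kinase, rose by 2.55 on the log2 scale, the adenylyl cyclase ADCY9 by 2.51 and the kinase's regulatory subunit PRKAR2B by 2.24. The gene called lower was CREM, a cyclic AMP-responsive transcription factor of round spermatids, at 15.5 ± 8.62 against 258 ± 5.96 FPKM (log2 fold change −4.14), a symbol on 2 genes. In limma 3 of the 14 were lower at an unadjusted p under 0.05, CREM, PRKAR1A (−0.75) and PRKAR2A (−0.46). Below GHR and PRLR, 7 of 13 JAK-STAT genes were higher, 53.8% beside 33.4% of all tested genes, and 0 lower in limma, with 0 lower at an unadjusted p under 0.05 and 0 lower by voom. Under median-of-ratios scaling 3 were higher and 0 lower, and their median went from 1.12 to 0.61. They included the phosphatase PTPN11 at 1.77, STAT3 at 1.54 and JAK1 at 1.45.

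Around the nuclear receptors, 7 of 16 cofactors and chaperones were higher, 43.8% beside 33.4% of all tested genes, and 0 lower in limma, with 3 lower at an unadjusted p under 0.05 and 0 lower by voom. Under median-of-ratios scaling 4 were higher and 3 lower, and their median went from 0.80 to 0.22. The higher genes included FKBP5, a chaperone of NR3C1, at 1.99, the coactivator NCOA3 at 1.99 and the acetyltransferase EP300 at 1.61. Of 7 genes known to be induced by glucocorticoid, 3 were higher, 42.9% beside 33.4% of all tested genes, and 0 lower in limma, also 0 lower by voom or at an unadjusted p under 0.05. Their median of 0.62 was near the 0.51 of all genes, and under median-of-ratios scaling the same counts of 3 and 0 came with a median of 0.06. Those called were ZBTB16, also a marker of spermatogonia, at 2.34, TSC22D3 at 2.05 and FKBP5 again, while PER1, KLF9, DUSP1 and SGK1 were not called. All of these lists together had 38 genes higher and 13 lower, and 22 higher and 20 lower under median-of-ratios scaling.

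Many genes shared the profile of each receptor across the 6 animals, except that of THRA. For FSHR the closest by Pearson's r of log2 (FPKM + 1) were ARHGAP32 and PSMA2, but 4637 genes, 30.8% of those tested, had an r of at least 0.95. For LHCGR they were CTSK and COL28A1 among 3963 such genes, and for NR3C1 SRCAP and GPD1L among 5137. GHR was closest to SLC25A38 and RTN2 among 2577, and ESR1 to PCTP and GTF2IRD1 among 1010. THRA, closest to CRACD and TMEM35B, had 19 genes at that r, 0.126% of those tested. The 6 points of each correlation fall into the 2 groups, so a gene that differs strongly between groups is like any other that does, and no p is given.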

How the data were processed

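Testis RNA of 3 cattle-yak and 3 yak was sequenced as stranded paired-end mRNA libraries, 1 per animal. The methods of the paper name Trimmomatic for trimming, HISAT2 for mapping (to the yak reference genome in both groups), Cufflinks for FPKM and HTSeq for read counts. The authors deposited 1 table of FPKM values per gene, not scaled between libraries and not separated by isoform. The values are whole fragments over 1 length per gene, so whether Cufflinks or another tool gave them is uncertain. The table has 0 columns of other samples. GO and KEGG columns were not used.

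From these steps, fragments were recovered for 17973 of 18918 genes (tolerance 0.01 fragment). The other 945 genes had 1 value above 0.

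Genes with a mean of at least 0.5 FPKM (15042) were compared in R 4.3.3 by limma 3.58.1, which fitted log2 (FPKM + 1) with a variance trend and a two-sided moderated test, adjusted over all of them. The added 1 shrinks the fold change of low genes. On data simulated for this comparison (14955 genes), limma called 190 of 200 genes changed 4-fold and 3 unchanged ones. The changed genes were well-covered ones, moved in both directions, and every other gene was left unchanged. In the real data 81.9% of tested genes passed the adjusted p, so these rates do not carry over to the calls here. Ratios within a library used 0.1 FPKM added and exact permutation tests of the group labels. Python 3.11.15 with numpy 2.4.6, pandas 2.3.3, scipy 1.17.1 and matplotlib 3.10.9 did the rest.

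The labels give 1 animal per library, and p-values measure the spread between these animals. The receptors and lists were chosen with earlier results of these data known. Named were all 9 receptors, up to 4 called genes of each list by size of fold change, genes of the ratios, and the 2 genes most like each tested receptor. NR1D1 was added after its values were seen. Some genes of the lists are counted but not reported here by name, and list genes that the table does not name were not analysed here. The alternatives tried were other pseudocounts, minimums, scalings, priors and fold thresholds, voom on fragments, centring on Sertoli or Leydig markers, and leaving out each animal.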

Additional observations from a re-analysis of the deposited data

How the results depend on the processing

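The count of 3 receptors higher in cattle-yak stayed at 3 when any animal was left out (3 to 3), and under the stricter minimum, median-of-ratios and quantile scaling, and was 4 as TPM or with voom and median-of-ratios scaling together. It was 5 with a pseudocount of 0.1 or 0.01, with voom on fragments and without a fold threshold, where GHR and ESR1 were added. It was 6 with voom on genes with at least 10 fragments, where RXFP2 was let in by the other minimum. Centring each library on its Sertoli or its Leydig markers gave 0 higher and 3 lower, as every gene moved by the marker level. The median over all tested genes was then −1.73 and −1.69, and GHR and ESR1 lay at or near it. Shares of all genes are given above for the main, median-of-ratios and voom fits only, so nothing is read from the other counts. The log2 fold changes of LHCGR were then −0.33 and −0.28, of NR3C1 −0.59 and −0.54, of THRA −2.00 and −1.96, of GHR −1.46 and −1.42 and of ESR1 −1.73 and −1.69, and those of FSHR 0.21 and 0.26 were no longer called. This centring was done after the pseudocount of 1, which compresses GHR and ESR1, and as ratios with 0.1 FPKM added they were −0.78 and −1.11 relative to the Sertoli markers. THRA was −0.35 under median-of-ratios scaling and −0.37 with voom added. In the lists around the receptors, 38 genes were higher (35 to 41 when leaving out an animal) and 13 lower (12 to 15). Higher genes numbered 22 under median-of-ratios scaling, 0 under either centring and 60 without a fold threshold. Lower genes numbered 5 at a minimum of 5 FPKM, 20 under median-of-ratios scaling, 21 with voom added, 60 under either centring and 20 without a fold threshold. The log2 ratio of RXFP2 to INSL3, 0.93 higher in cattle-yak, was −0.93 with a pseudocount of 1, at which RXFP2 is mostly the pseudocount. FSHR relative to the Leydig markers was 0.37, and between −0.037 (without Y1) and 0.76 when an animal was left out. No paired analysis was possible because the labels pair no animals. Depth limits RXFP2, PRLR and ESR2, which rest on a few fragments per animal.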
